A study of Homo sapiens with 4 samples.

Results

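The nuclear genes of oxidative phosphorylation were followed on 4 Affymetrix Human Genome U133 Plus 2.0 arrays of U937 cells, an established human lymphoma line with monocyte-like features. Genes were taken by symbol: those starting with NDUFA, NDUFB, NDUFC, NDUFS, NDUFV, UQCR, COX4 to COX8 or ATP5, together with SDHA, SDHC, SDHD and CYC1, with pseudogenes and assembly factors left out. COXFA4 and COXFA4L2, formerly NDUFA4 and NDUFA4L2, entered under their former symbols and were placed with complex IV. Of 19775 genes with a probe set that names a single gene, 80 met this rule: 33 of complex I, 3 of complex II, 7 of complex III, 19 of complex IV and 18 of complex V. NDUFS5, NDUFS8, NDUFC2, UQCRH and UQCRHL were represented only by probe sets that carry several symbols and have no value here. SDHB, UQCRFS1 and ATP5MGL were not analysed here.

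The 4 groups held 1 array each. Control cells were not treated. The Sonazoid array came from cells given 0.05% Sonazoid, a suspension of gas microbubbles used to enhance ultrasound images, without sonication. The ultrasound array came from cells sonicated at 0.3 W/cm2 for 1 min without the agent, and the combination array from cells given 0.05% Sonazoid and the same sonication. The 3 treated cultures were then kept for 3 h at the temperature of culture; how long control cells were kept was not stated in the labels. All groups were the same line with no genetic change named in the labels. With 1 array per group, no difference between 2 arrays could be tested, and the number of arrays limits the precision of every value.

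Oxidative phosphorylation moves electrons from nutrients to oxygen through protein complexes of the inner mitochondrial membrane. Complex I takes electrons from NADH and complex II from succinate, complex III passes them to cytochrome c, complex IV hands them to oxygen, and complex V, the ATP synthase, uses the proton gradient that builds up to make ATP. Most subunits are encoded in the nucleus and imported, while a small core is encoded in mitochondrial DNA; none of the 13 mitochondrially encoded subunits had a usable probe set, so only the nuclear side was seen.

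Signals are deposited intensities after each array was scaled to a common trimmed mean, and differences are log2 ratios of 2 arrays. A floor of 23.8, the median of all scaled values, stood for the lowest usable signal, and where 1 of the 2 arrays was at the floor the difference is only a bound. Levels of different genes are not compared, since probes differ in brightness. Signals and the order of arrays are given after scaling throughout; of 201 differences computed for named members, 134 kept their sign under all 4 scalings tried (trimmed mean, none, quantile, and factors from bright genes other than members), and 67 did not. Genes above the floor numbered 11984 to 12252 per array, and 75 to 78 of the 80 members lay above it. Of 8 measured monocyte markers, 7 to 8 were above the floor on each array, with a summed signal of 20901 to 25968. Markers of other cells above it numbered 1 to 3 of 6 for T and NK cells (summed signal 2864 to 3223), 1 to 2 of 3 for B cells, 1 to 2 of 3 for erythroid cells and platelets, 2 to 4 of 6 for fibroblasts and endothelium and 1 of 4 for epithelium; CD3D, CD8A, KLRD1, CD79B, PPBP, VWF, EPCAM and KRT18 were below it on all 4 arrays. Their part in the results was not tested. Ratios of 3' to 5' control probe sets, a sign of RNA integrity, ran from 1.16 to 1.204 for ACTB and from 0.946 to 1.01 for GAPDH. In such bulk RNA, fewer cells of a kind and less RNA per cell cannot be told apart.

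Most members were bright and moved little. The 72 members with a mean signal of at least 1000 had signals from 1008 to 15042, so none of them passed this limit through a single array. Between its lowest and highest array, the median such gene differed 1.15-fold, against 1.16-fold for the 2757 genes with a mean signal of at least 1000. Those genes share only that limit and were not matched to the members in brightness, with single signals down to 208. A range of 1.2-fold or more was seen in 12 of the 72 (16.7%), against 33.3% of these 2757 genes. NDUFV2, a core subunit that carries an iron-sulfur cluster, had the smallest range, 1.04-fold, with 2833 in control, 2922 with Sonazoid, 2857 with ultrasound and 2936 with the combination. NDUFB7, an accessory subunit of complex I, had the largest, 1.65-fold.

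The small differences were mostly above 0 where ultrasound was applied, under each of the 4 scalings tried. With ultrasound only against control, the median member stood at 0.09 on the log2 scale (78 genes), beside 0.02 for all genes and 0.01 for genes with a mean signal of at least 1000. Of the 72 bright members, 58 were above 0, where 52.8% of genes of that brightness were. Against Sonazoid alone, the combination gave a median member of 0.08 (77 genes), beside -0.00 for all genes and 0.01 for bright genes, and again 58 of the 72 bright members were above 0, where 52.8% of bright genes were. These counts used scaled arrays; without scaling, 50 and 67 of the 72 were above 0, with quantile normalization 51 and 48, and with factors from other bright genes 60 and 60. The median member lay above the median bright gene by 0.08 and 0.07 after scaling, by 0.08 and 0.07 as deposited, and by 0.05 and 0.05 with quantile normalization.

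The difference was small for any gene. In ultrasound against control, 6 members were at least 1.2-fold higher and 2 lower, against a background of 20.8% and 16.2% of all genes. Among bright members it was 3 higher and 1 lower of 72, against 6.31% and 7.58% of bright genes. In the combination against Sonazoid, 3 members were at least 1.2-fold higher and 3 lower, against 17.6% and 16.6% of all genes, and 2 bright members were higher and 2 lower, against 4.24% and 4.32% of bright genes. No measured difference of a member reached 2-fold in either comparison. Of all genes, 1.65% and 1.46% passed 2-fold upward and 0.721% and 0.711% downward. COX6A2 and COX7B2 are known only as bounds in ultrasound against control, and COX6B2 and ATP5MF in the combination against Sonazoid. The members' shares past 1.2-fold were thus at or under those of other genes, and their differences were mostly small and of the same sign.

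These 2 comparisons share no array, so a gene's differences in them were measured apart. Of the 72 bright members, 50 were above 0 in both (69.4%), against 37.0% of bright genes, and 6 were below 0 in both (8.33%), against 31.4%. Across genes, which share their arrays and are not independent replicates, Pearson's r between the differences was 0.31 and Spearman's rho 0.47 in the members, and 0.70 and 0.49 in bright genes. More members than not were above 0 on both pairs of arrays, while the size of the difference in a single gene carried over only in part.

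**Figure D1:**
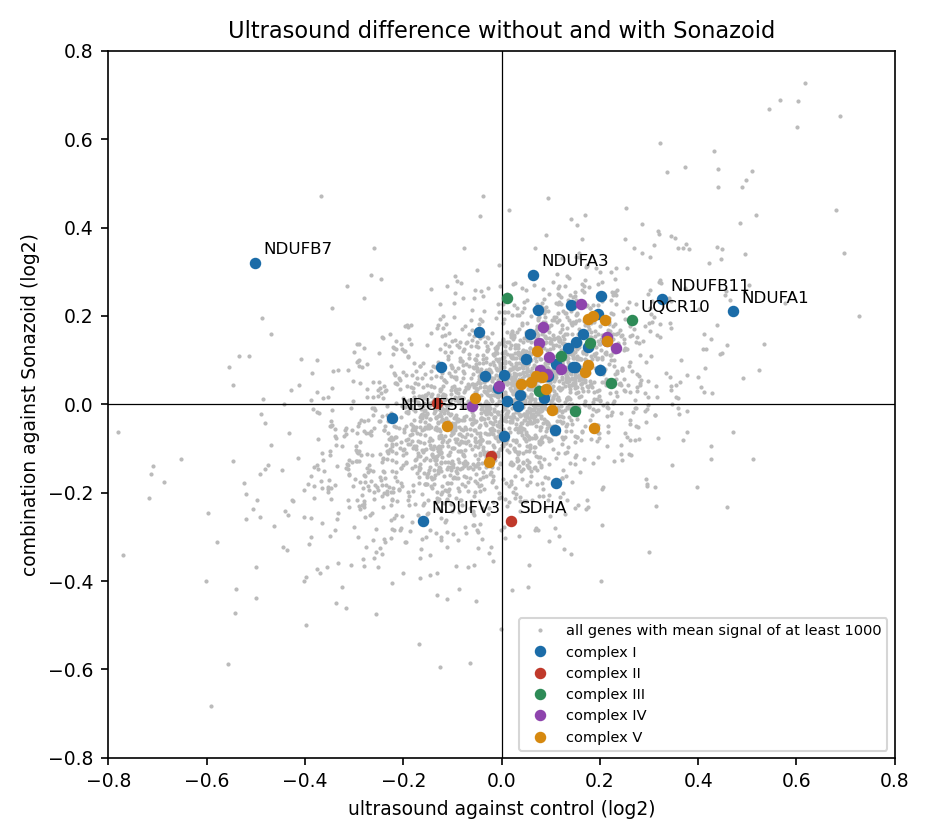
Log2 difference of ultrasound against control (horizontal axis) and of the combination against Sonazoid (vertical axis); each coloured point is a bright member by complex and grey points are all genes with a mean signal of at least 1000, 22 of which lie outside the axes. Of the 72 members, 50 lie at the upper right, while NDUFB7 is the member farthest to the left, below 0 without Sonazoid and above 0 with it.

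Sonazoid alone gave small differences whose sign depended on the scaling. Against control, the Sonazoid array gave a median member of -0.03 (77 genes), beside -0.00 for all genes, and 26 of the 72 bright members were above 0, where 46.1% of bright genes were. Without scaling this median was 0.06 and 59 of 72 were above 0, but all genes stood at 0.09 and bright genes at 0.08. Both without scaling and after it, 34 of the 72 lay above the median bright gene. With quantile normalization the median member was 0.01 and 41 were above 0, where all genes stood at 0.004. COX6A2 was at least 1.2-fold higher and COX6B2 and COXFA4L2 lower, all 3 as bounds at the floor, against 13.9% higher and 13.9% lower of all genes, and no other member reached 2-fold, against 0.652% and 0.715%. No bright member passed 1.2-fold in either direction, against 1.78% and 1.74% of bright genes. With Sonazoid added to ultrasound, the combination against ultrasound gave a median of -0.03 (79 genes), beside -0.01 for all genes; 3 members were at least 1.2-fold higher and 5 lower, against 15.4% and 20% of all genes. Of the 72 bright members, 27 were above 0, where 49.1% of bright genes were, and 2 were 1.2-fold higher and 3 lower, against 4.53% and 5.84%. Without scaling that median was 0.18, where all genes stood at 0.19.

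Against control, the combination gave a median member of 0.07 (78 genes), beside -0.00 for all genes and -0.01 for bright genes. In that comparison 50 of the 72 bright members were above 0, where 48.6% of bright genes were. NDUFA10, NDUFA3 and COX6A2 were at least 1.2-fold higher and COX4I2 and COXFA4L2 at least 1.2-fold lower, against 18.4% and 16.9% of all genes. Among bright members that made 2 higher and 0 lower of 72, against 5.59% and 5.01% of bright genes. No measured difference reached 2-fold, where 1.39% of all genes were higher and 0.872% lower by that much. COX6A2, COXFA4L2 and ATP5MF are known only as bounds in this comparison. With no floor, 1 member was 2-fold higher and 1 was 2-fold lower. The comparisons with control share the control array, so their values are given side by side and are not separate evidence. Without scaling the median of all genes was itself at 0.16 in this comparison, and that of the members at 0.24.

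Which array was highest depended on the scaling. After scaling to the trimmed mean, among the 72 bright members the ultrasound array was highest for 39 (54.2%), against 33.3% of bright genes, the combination array for 22, against 22.7%, the control array for 8, against 21.8%, and the Sonazoid array for 3, against 22.2%. The Sonazoid array was lowest for 36 (50%), against 28.7% of bright genes. As deposited, the combination array was instead highest for 64 of the 72 and the ultrasound array for 3, with the Sonazoid array lowest for 8. There the median bright gene was itself higher on the combination array, by 0.17 against control and 0.21 against ultrasound on the log2 scale. With quantile normalization the ultrasound array was highest for 31, the combination array highest for 27 and the Sonazoid array lowest for 15. No shares of bright genes are given for deposited or quantile values, so those counts have no background beside them.

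**Figure D2:**
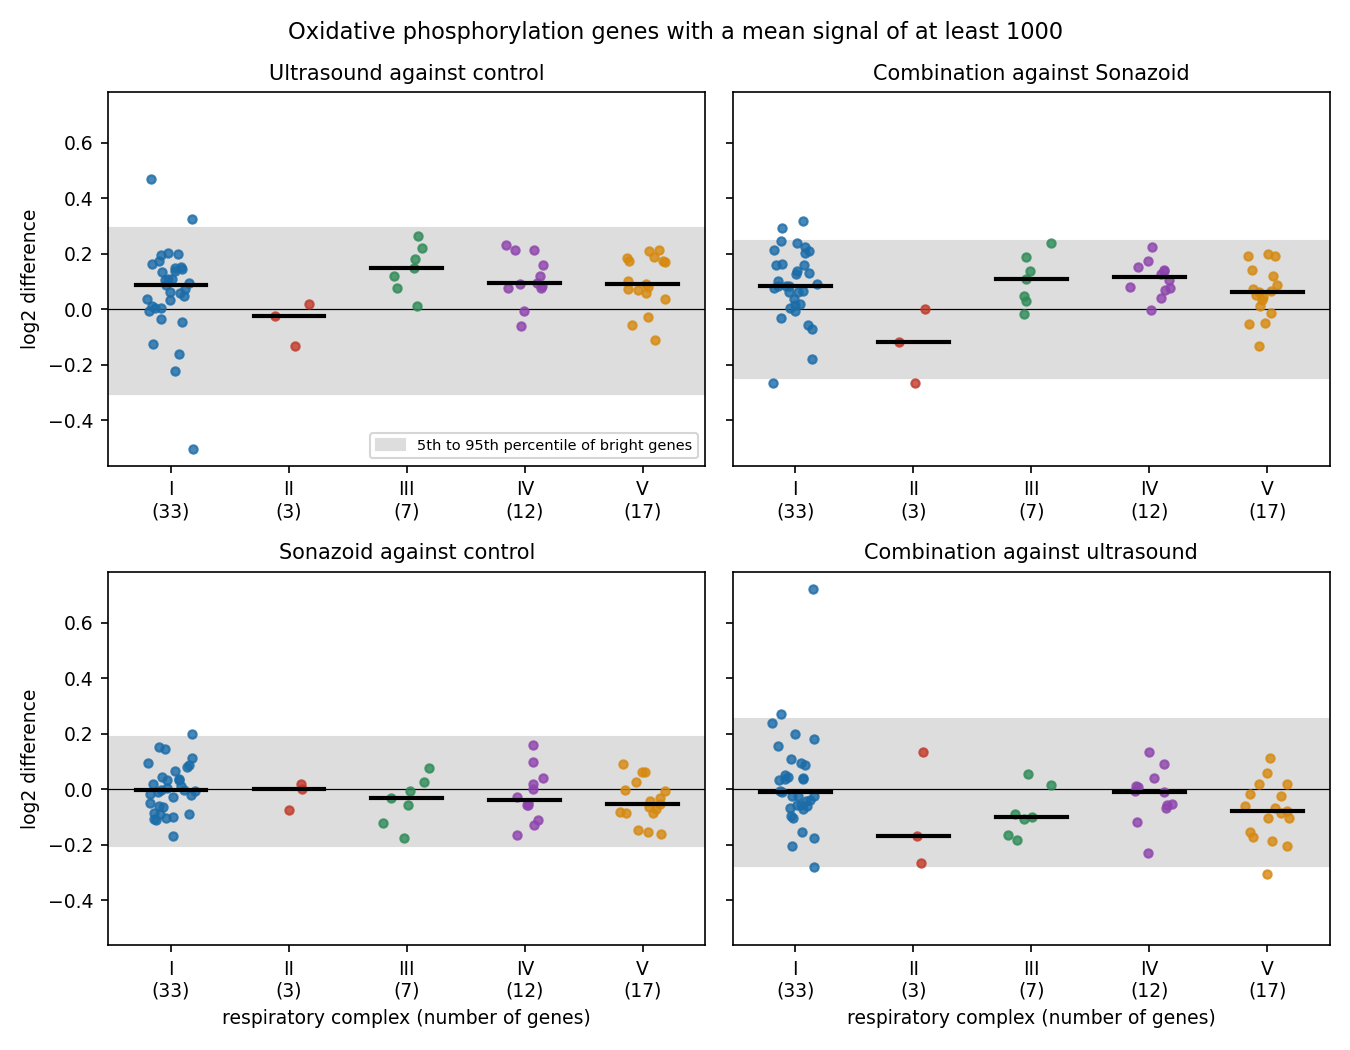
Log2 differences (vertical axis) of the 72 bright members by complex (horizontal axis, with gene numbers) in 4 comparisons; points are genes, black bars are medians and the grey band runs from the 5th to the 95th percentile of genes with a mean signal of at least 1000. After scaling, in both upper panels, where ultrasound is the difference, most points of complexes I, III, IV and V lie above 0, and the medians of complex II lie below it.

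Promoter sequence was set beside these values, since transcription of many of these genes is known to depend on NRF1 and on GABP, an ETS factor. Sequences of RefSeq on GRCh38.p14, 250 bases up to the start of the gene, were matched for 68 of the 80 members. The NRF1 motif, a GC-rich motif whose letters appear in capitals in the promoters of SDHA and NDUFA3 and which was searched on either strand like the rest, was in 14 of them (20.6%), against 6.56% of 22199 promoters of coding genes. The ETS motif CCGGAAGT was in 9 (13.2%), against 4.41%. The YY1 motif was in 0 of 68, against 0.261% of promoters, the NF-Y motif CCAAT in 22 (32.4%), against 32.7%, and the TATA box TATAAA in 7 (10.3%), against 9.005%. In UQCR11, SDHA and the other promoters printed, these searches ran separately, and a base can belong to matches of different motifs.

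Members with and without a match overlapped in their ultrasound differences. The 13 bright members with an NRF1 match had a median of 0.07 in ultrasound against control and 0.08 in the combination against Sonazoid, while the 50 without one had 0.10 and 0.09. The 9 members with an ETS match had medians of 0.17 and 0.15, and the 54 without had 0.09 and 0.08. The ranges were from -0.22 to 0.22 with an ETS match and from -0.50 to 0.47 without it in ultrasound against control. These are descriptions of small sets, and a match is not a measured binding site.

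Complex I, the entry point for NADH, held the widest single differences among bright members. NDUFA1, a small accessory subunit of the membrane arm, had signals of 6406 in control, 6311 with Sonazoid, 8882 with ultrasound and 7306 with the combination. The ultrasound array was the highest and the combination array next, while the other pair lay close together. That was 1.39-fold higher with ultrasound than in control and 1.16-fold higher with the combination than with Sonazoid. NDUFB11, another accessory subunit of the membrane arm, followed the same order, with 3872 in control, 3640 with Sonazoid, 4856 with ultrasound and 4293 with the combination. Its ultrasound difference was 1.25-fold without Sonazoid and 1.18-fold with it. NDUFA2, an accessory subunit, had 2109 and 2093 on the arrays without sonication and 2427 and 2482 on those with it, so the sonicated pair lay above the others whether or not Sonazoid was present.

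NDUFA3 and NDUFA10 were the bright members highest in the combination against control. NDUFA3, an accessory subunit, had 2074 in control, 2031 with Sonazoid, 2167 with ultrasound and 2489 with the combination, with only the combination array apart. Its log2 difference between the combination and control was 0.26. Its promoter is shown because it holds the most NRF1 and ETS matches among the named members of complex I, both of them NRF1; it lies at chr19:54102605-54102854 on the plus strand, capitals mark the matches, and these begin 170 and 73 bases before the start:
NDUFA3: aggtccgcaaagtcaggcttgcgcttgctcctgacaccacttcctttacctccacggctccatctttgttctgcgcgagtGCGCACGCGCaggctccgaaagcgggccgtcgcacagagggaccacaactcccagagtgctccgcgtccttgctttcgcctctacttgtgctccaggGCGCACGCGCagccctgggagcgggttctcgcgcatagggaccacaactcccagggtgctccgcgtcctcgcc

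NDUFA10, an accessory subunit on the matrix side, had 1088 in control, 1209 with Sonazoid, 1228 with ultrasound and 1323 with the combination, so control was lowest and each treated array was higher. NDUFB6, an accessory subunit, was instead high on the arrays with Sonazoid, with 2163 in control, 2483 with Sonazoid, 2222 with ultrasound and 2519 with the combination.

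A few members of complex I went against the rest. NDUFB7 had 1499 in control, 1399 with Sonazoid, 1059 with ultrasound and 1747 with the combination. The ultrasound array was its lowest and the combination array its highest. It was 1.42-fold lower with ultrasound than in control and 1.25-fold higher with the combination than with Sonazoid, and its only other probe set was above the floor on 1 array, so no second bright measurement stood beside it. NDUFS1, the core subunit with the most iron-sulfur clusters, had 1311 in control, 1385 with Sonazoid, 1123 with ultrasound and 1354 with the combination, again with ultrasound lowest. NDUFV3, an accessory subunit of the NADH-binding module, had 1203, 1330, 1076 and 1108 in the same order, and its sonicated arrays were the lower pair. NDUFB10 had 4157 in control and 3693 with Sonazoid, with 4028 and 4135 on the sonicated arrays, so only the Sonazoid array stood low. NDUFA9, a subunit near the site that binds ubiquinone, had 2231 in control, 2367 with Sonazoid, 2407 with ultrasound and 2090 with the combination, the lowest of the 4.

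NDUFAB1, the mitochondrial acyl carrier protein, shows how little most of the complex moved, with 11695 in control, 11653 with Sonazoid, 12635 with ultrasound and 12410 with the combination. Of the 33 measured genes of complex I, 26 were above 0 in ultrasound against control (median 0.09) and 27 in the combination against Sonazoid (median 0.08). Without scaling these medians were 0.05 and 0.17, and with quantile normalization 0.07 and 0.05.

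Complex II, which joins the chain to the citric acid cycle, had its lowest signals on the combination array for 2 of its 3 measured genes. SDHA, the subunit that oxidises succinate and holds the flavin, had 1281 in control, 1296 with Sonazoid, 1299 with ultrasound and 1079 with the combination. The first 3 arrays were nearly level and the combination array lay below them. It was 1.19-fold lower than control, 1.204-fold lower than ultrasound and 1.202-fold lower than Sonazoid. SDHC, a membrane anchor, had 2105 in control, 1999 with Sonazoid, 2073 with ultrasound and 1845 with the combination, and its 4 probe sets with a mean signal of at least 1000 were lower in the combination than in control by log2 differences between -0.19 and -0.11. SDHD, the other anchor, had 3194, 3193, 2915 and 3199 in the same order of arrays, with only the ultrasound array low. The probe sets of SDHA and of SDHC that were used are of the kind whose probes can match other transcripts. Near-identical copies of SDHA also exist in the genome, so these signals of complex II may be mixed. Many other members, among them NDUFB7, NDUFB11, UQCR10, COX8A and ATP5MC1, were also read by probe sets not named as gene-specific.

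With 3 genes, the median of complex II in the combination against control was -0.19 after scaling, -0.18 with quantile normalization and -0.02 as deposited, where all genes stood at 0.16. The promoter of SDHA is shown because its 4 NRF1 matches, in capitals, are the most of any member printed. They begin 166, 117, 68 and 19 bases before the start, and the window is chr5:218070-218319 on the plus strand:
SDHA: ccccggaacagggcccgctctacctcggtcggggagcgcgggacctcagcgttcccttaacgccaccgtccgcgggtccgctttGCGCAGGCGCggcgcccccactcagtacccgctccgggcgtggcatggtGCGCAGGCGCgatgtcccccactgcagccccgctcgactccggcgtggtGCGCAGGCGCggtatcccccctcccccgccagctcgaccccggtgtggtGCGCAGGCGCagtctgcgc

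Complex III had all of its 7 measured genes above 0 in ultrasound against control by their brightest probe sets, with a median of 0.15. In the combination against Sonazoid 6 of 7 were above 0, with a median of 0.11. Without scaling those medians were 0.11 and 0.19, with 6 and 7 genes above 0, and with quantile normalization 0.10 and 0.04, with 5 and 4 above 0; in ultrasound against control UQCR11 turned under both and CYC1 under the latter. UQCR10, a small subunit, had 8146 in control, 7965 with Sonazoid, 9796 with ultrasound and 9088 with the combination, so the sonicated arrays were the higher pair. That was 1.202-fold higher with ultrasound than in control, but a dimmer probe set of the same gene had 563 in control and 466 with ultrasound, a log2 difference of -0.27, and so the 2 probe sets disagreed in direction. UQCRC2 had 2 probe sets of similar brightness that disagreed in ultrasound against control, with 0.15 for the one used and -0.12 for the other. UQCRC1, a core protein of the complex, had 4758 in control, 4734 with Sonazoid, 5553 with ultrasound and 4895 with the combination. UQCRQ, which binds ubiquinone, had 3363, 3088, 3811 and 3400 in the same order, highest with ultrasound and lowest with Sonazoid.

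CYC1, cytochrome c1, which hands electrons to cytochrome c, stayed within 7467 and 8184 on the 4 arrays, a narrow range. UQCR11 had 4848 in control, 4290 with Sonazoid, 4887 with ultrasound and 5069 with the combination, with only the Sonazoid array apart. Its promoter is shown because it holds the most NRF1 and ETS matches in complex III, 2 of NRF1, which begin 29 and 10 bases before the start, and 1 of the ETS motif at 117; all are in capitals in the window chr19:1605463-1605712 on the minus strand:
UQCR11: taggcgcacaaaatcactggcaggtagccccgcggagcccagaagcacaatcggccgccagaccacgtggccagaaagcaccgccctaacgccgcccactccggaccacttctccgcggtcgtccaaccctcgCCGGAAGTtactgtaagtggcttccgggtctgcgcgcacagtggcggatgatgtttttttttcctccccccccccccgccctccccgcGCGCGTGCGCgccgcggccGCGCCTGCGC

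Complex IV, cytochrome c oxidase, has several subunits made in pairs of isoforms by tissue. Of its 12 bright members, 10 were above 0 in ultrasound against control (median 0.09) and 11 in the combination against Sonazoid (median 0.12); with quantile normalization it was 9 and 11. COX8A, the form made in most tissues, had 6529 in control, 5816 with Sonazoid, 7580 with ultrasound and 6465 with the combination. Its highest array was ultrasound and its lowest Sonazoid, and the ultrasound difference was 0.22 on the log2 scale without Sonazoid and 0.15 with it. Its promoter, chr11:63974370-63974619 on the plus strand, is printed for its ETS match 19 bases before the start, with 2 NF-Y matches that begin at 235 and 132, all in capitals:
COX8A: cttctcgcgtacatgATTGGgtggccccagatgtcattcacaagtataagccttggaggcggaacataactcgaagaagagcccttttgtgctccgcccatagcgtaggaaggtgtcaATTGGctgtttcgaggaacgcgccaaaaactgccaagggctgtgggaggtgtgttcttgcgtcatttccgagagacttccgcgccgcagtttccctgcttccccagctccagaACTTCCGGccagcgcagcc

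COX6B1, which faces the space between the membranes, had 5813 in control, 6226 with Sonazoid, 6835 with ultrasound and 6796 with the combination, so the sonicated arrays were the higher pair. COX7A2, the form made in most tissues, had 5686, 6349, 6063 and 6659 in the same order, with control lowest. COX5A, a subunit on the matrix side, was highest in control, at 15042, and between 13880 and 14421 on the others, but quantile normalization put the Sonazoid array above control and the combination above ultrasound, and without scaling the combination array was highest. COX7A2L, which acts in the assembly of supercomplexes, lay between 2528 and 2631 and hardly moved.

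The isoforms of other tissues were mostly dim. COX4I2, the lung form known to respond to low oxygen, had 58.5 in control, 50.2 with Sonazoid, 82.4 with ultrasound and 39.97 with the combination. It was the only member with a measured difference past 2-fold after scaling, 2.06-fold lower with the combination than with ultrasound, against 1.16% of all genes lower by that much and 0.7% higher, and its signals lay not far above the floor. COX6A2, the muscle and heart form, had 4.99 in control, below the floor, and 40.4, 29.0 and 46.6 with Sonazoid, ultrasound and the combination. On that basis it was at least 1.95-fold higher with the combination than in control. As deposited this bound passed 2-fold, with a log2 value of 1.08. COX4I2, at -0.83 in the combination against ultrasound, did not pass 2-fold as deposited. COX6B2, a testis form, had 31.4, 12.2, 44.2 and 32.3 in the order control, Sonazoid, ultrasound and combination, and COXFA4L2 had 34.7, 11.2, 26.4 and 10.1. COX7A1 was below the floor on all 4 arrays, and COX7B2 reached 24.2 only with ultrasound. COX8C, a testis form, was above the floor on all 4, with 846 in control, 776 with Sonazoid, 767 with ultrasound and 761 with the combination.

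Complex V, the ATP synthase, was split by comparison. Of its 17 bright members, 14 were above 0 in ultrasound against control (median 0.09) and 13 in the combination against Sonazoid (median 0.06), but only 8 in the combination against control (median -0.02). Over all 18 measured genes of the complex, the median in the combination against Sonazoid was 0.06 after scaling, 0.15 as deposited and -0.01 with quantile normalization, and in the combination against control it was 0.02, 0.199 and 0.03; of the 17 bright members, 7 were above 0 in the combination against Sonazoid with quantile normalization. ATP5MC1, ATP5MC2 and ATP5MC3 code for the same ring subunit of the rotor. ATP5MC1 had 2191 in control, 2096 with Sonazoid, 2495 with ultrasound and 2020 with the combination, and ultrasound stood apart from the rest. Its combination signal was 1.24-fold lower than with ultrasound. ATP5MC2 had 5903, 5732, 5469 and 5540 in the same order, with control highest, and its direction in ultrasound against control was the opposite of that of ATP5MC1. ATP5PB, a subunit of the peripheral stalk, had 13732 in control, 12268 with Sonazoid, 14107 with ultrasound and 12658 with the combination, so the arrays with Sonazoid were the lower pair; with quantile normalization or without scaling this pairing was lost.

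ATP5F1D, the delta subunit of the rotor stalk, had 2433, 2300, 2389 and 2101 in the order control, Sonazoid, ultrasound and combination, lowest with the combination. ATP5IF1, an inhibitor of the enzyme and no subunit of it, had 3071, 2955, 3296 and 2927 in the same order. Its other bright probe set had 1127, 1135, 979 and 1004, lowest with ultrasound, so the 2 disagreed in direction in ultrasound against control. ATP5MF had only a dim single-symbol probe set, above the floor on 1 array. ATP5MJ, a small membrane subunit, had 6876 in control, 7318 with Sonazoid, 7984 with ultrasound and 8079 with the combination, lowest in control. Its promoter is shown as that with the most NRF1 and ETS matches among the named members of complex V, 1 of NRF1 in capitals that begins 17 bases before the start, in the window chr14:103921530-103921779 on the minus strand:
ATP5MJ: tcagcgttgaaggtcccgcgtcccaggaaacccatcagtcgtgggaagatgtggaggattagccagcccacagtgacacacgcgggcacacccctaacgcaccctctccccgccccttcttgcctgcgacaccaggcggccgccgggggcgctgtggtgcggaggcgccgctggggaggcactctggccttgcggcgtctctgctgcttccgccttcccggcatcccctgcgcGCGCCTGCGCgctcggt

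**Figure D3:**
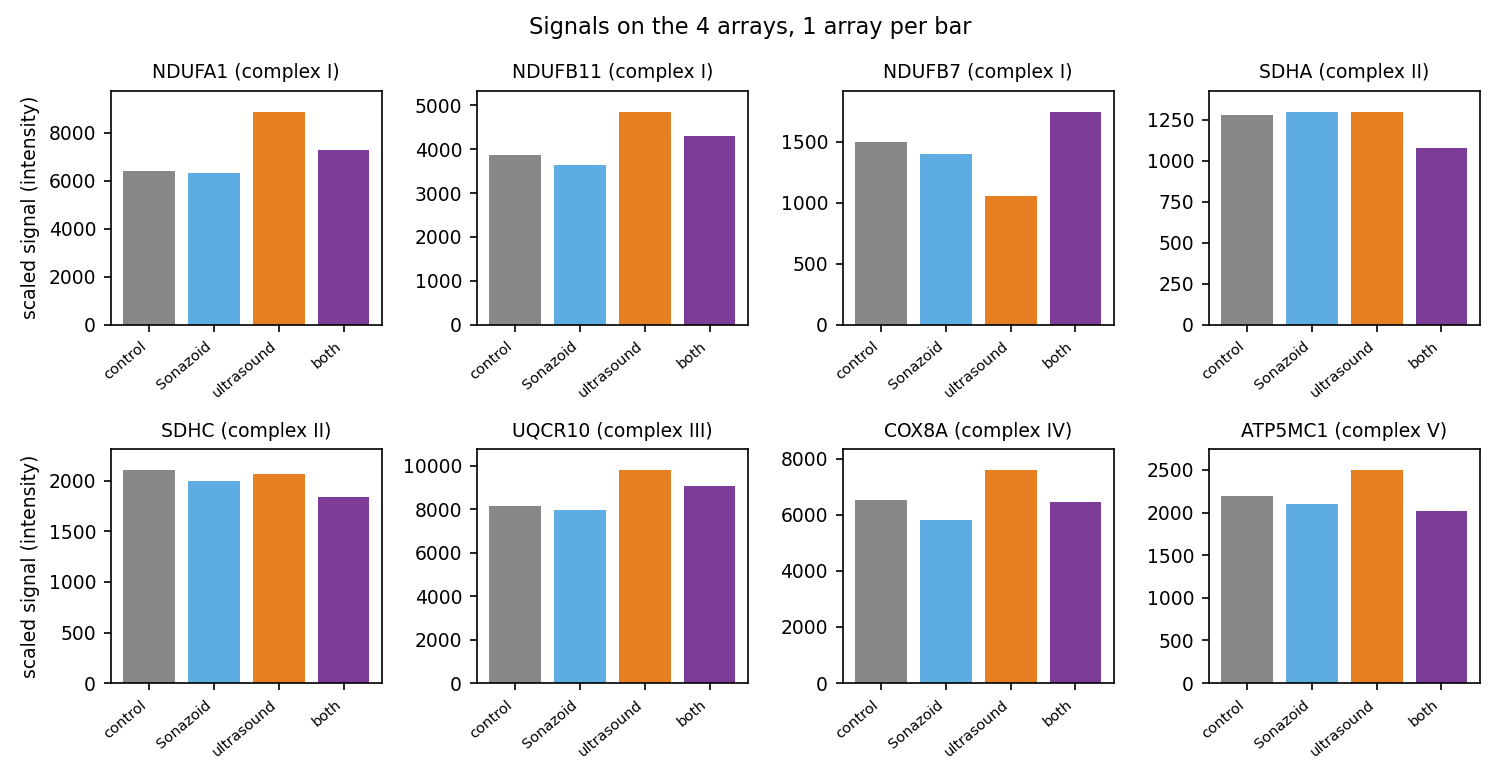
Scaled signal (vertical axis, linear intensity from 0) of 8 named members on the control, Sonazoid, ultrasound and combination ("both") arrays, each bar 1 array with no error. After scaling, NDUFA1, NDUFB11, UQCR10, COX8A and ATP5MC1 are highest on the ultrasound array, NDUFB7 is lowest there, and SDHA and SDHC are lowest on the combination array.

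The only test the design allowed used the 4 arrays as the 4 combinations of Sonazoid and ultrasound. An additive fit in limma, with a Sonazoid term and an ultrasound term, leaves 1 residual degree of freedom per gene, which is the departure from additivity and not the spread between cultures. With Benjamini-Hochberg adjustment over 13965 genes, 0 members and 0 genes passed an adjusted p of 0.05 for either term. At an unadjusted p of 0.05, limma gave 1 member higher with ultrasound (COX6B2, which was under the floor on 1 array) and 0 lower of 79, against 4.98% and 3.32% of all genes. For Sonazoid it gave 1 higher (COX6A2, under the floor in control) and 1 lower (COX6B2, under the floor with Sonazoid), against 2.45% and 3.19%. With a stricter floor, the 75th percentile of signals, limma called 65 of 7991 genes higher and 5 lower for ultrasound and 0 of the 73 members tested, a count near the share over all genes.

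The ultrasound term of NDUFA1 was 0.34 (95% interval -0.05 to 0.73; limma adjusted p = 0.63) and that of NDUFB11 was 0.28 (-0.06 to 0.62; limma adjusted p = 0.64). The term of SDHA was -0.12 (-0.52 to 0.28; limma adjusted p = 0.79), and that of NDUFB7, whose differences had opposite signs, was -0.09 (-0.83 to 0.65; limma adjusted p = 0.92). The median interval of the members reached 0.34 to either side, several times the median term of 0.08, so single members could not be resolved.

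**Figure D4:**
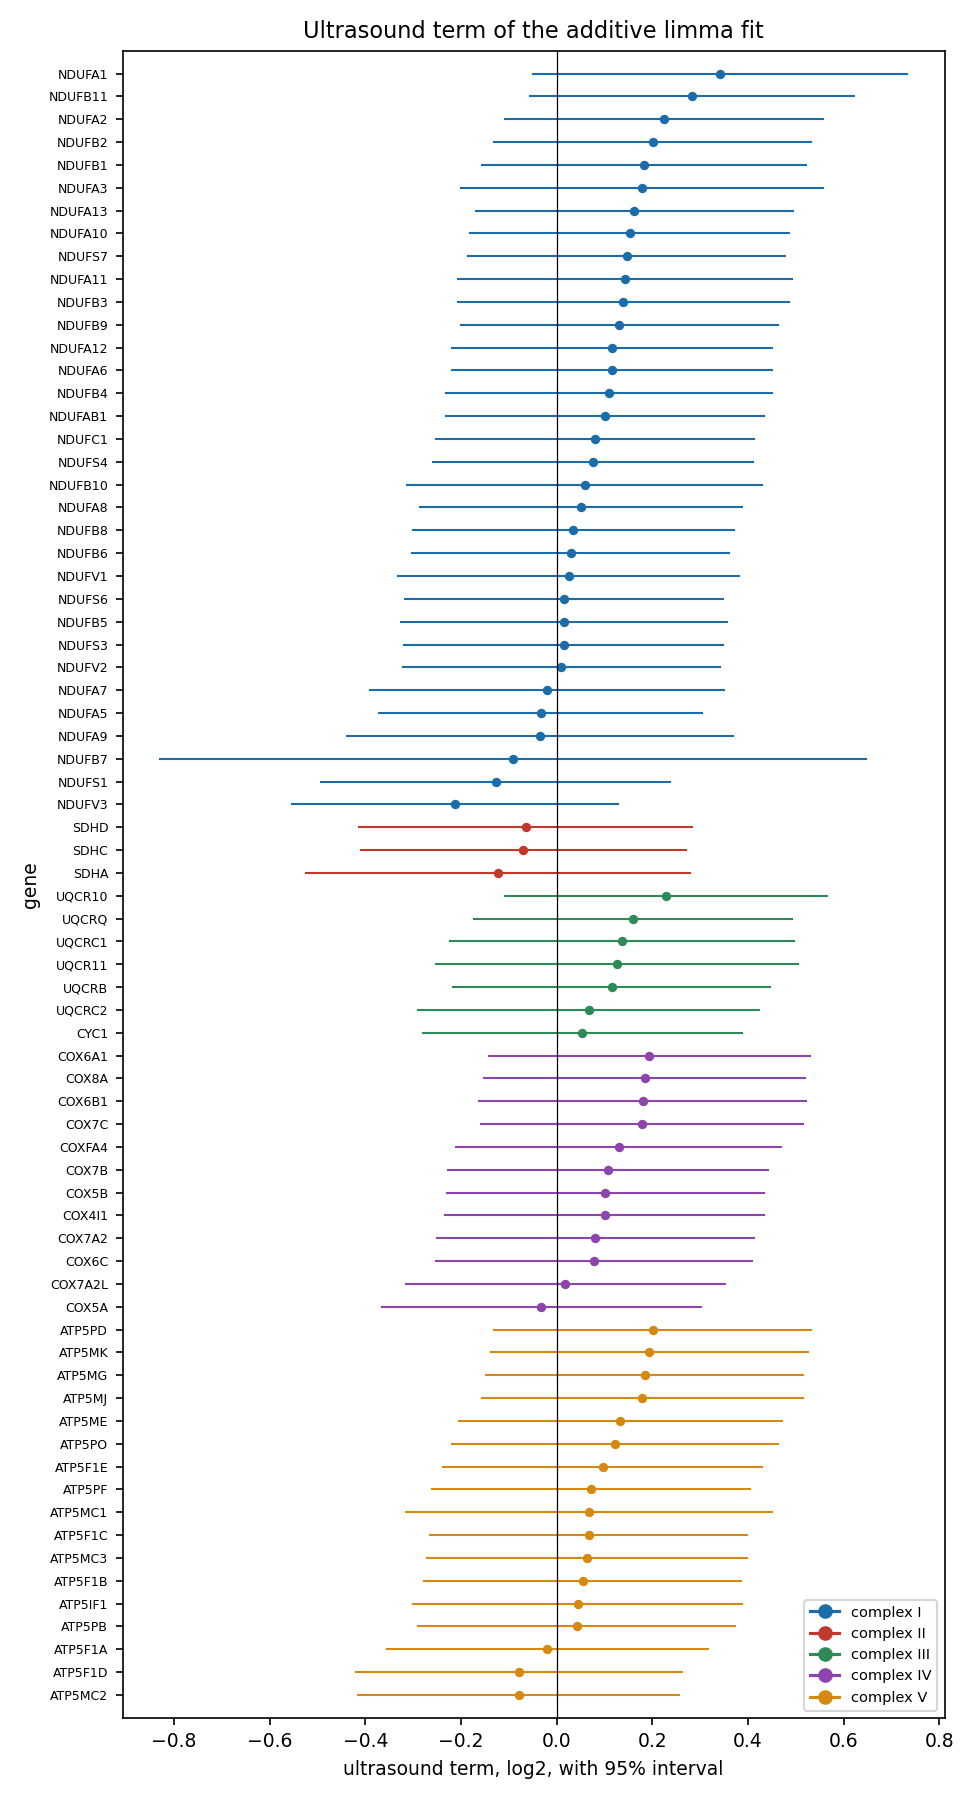
Ultrasound term of the additive limma fit (horizontal axis, log2, with 95% interval) for each of the 72 bright members (vertical axis), by complex. Every interval includes 0; most points of complexes I, III, IV and V lie to the right of 0, the 3 of complex II to the left, and NDUFB7 has the widest interval.

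Where a gene had several bright probe sets, these gave a sense of the error between probe sets. They were read on the same arrays, so they do not show the spread between arrays or cultures. In 15 members with more than 1 such probe set, the median gap between them was 0.11 in ultrasound against control and 0.07 in the combination against Sonazoid, about as large as the members' median difference. All of a gene's bright probe sets had the same sign in 12 and 10 of the 15, respectively.

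Genes that assemble, supply or regulate the pathway were counted in the same way, and many of them are dimmer than the members. In ultrasound against control, where 20.8% of all genes passed 1.2-fold upward and 16.2% downward, 4 of 57 measured assembly factors were higher and 7 lower, with a median of -0.05. The 75 genes of the mitochondrial ribosome, which makes the mitochondrially encoded subunits, gave 2 higher and 6 lower, with a median of 0.04. Of 11 genes of the citric acid cycle, 0 were higher and 2 lower, with a median of -0.01. In the combination against control their medians were -0.00, 0.00 and -0.12.

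In the cycle, OGDH, part of the 2-oxoglutarate dehydrogenase complex, had 209 in control, 169 with Sonazoid, 210 with ultrasound and 115 with the combination, 1.82-fold lower in the last than in control. Among 14 regulators of mitochondrial biogenesis, 0 were at least 1.2-fold higher and 4 lower in ultrasound against control, beside the same 20.8% and 16.2% of all genes. PPARGC1A, a coactivator that drives biogenesis, had 114 in control, 91.8 with Sonazoid, 50.2 with ultrasound and 71.2 with the combination, lowest on the sonicated arrays. MYC, which also acts on nuclear genes of mitochondria, had 6836, 7287, 5728 and 5243 in the same order. It was 1.19-fold lower with ultrasound than in control, short of 1.2-fold. HIF1A had 1137, 1202, 1154 and 1348, highest with the combination. POLRMT had 660, 651, 659 and 570, lowest with the combination. Of 20 carriers and genes of coenzyme Q, 2 were at least 1.2-fold higher and 1 lower in ultrasound against control. COQ6, an enzyme of coenzyme Q synthesis, had 86.6 in control, 103 with Sonazoid, 113 with ultrasound and 158 with the combination. UCP2, an inner-membrane carrier of the uncoupling protein family, had 760, 791, 929 and 619, highest with ultrasound and lowest with the combination.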

How the data were processed

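Total RNA of 4 cultures was hybridised to 1 array each, per the labels. The deposited values are linear intensities, 1 per probe set, made by the authors; the algorithm that summarised probes, and any scaling target, were not stated. Means of the arrays trimmed by 2% at each end differed 1.16-fold, so each array was multiplied to a common trimmed mean (factors 1.04, 0.977, 1.07 and 0.923 for control, Sonazoid, ultrasound and combination). Values under the floor of 23.8 were set to it and log2 was taken. Of 54675 probe sets, 41097 carried 1 symbol; the brightest by mean signal stood for each gene. Named genes were, by rule, the brightest and most variable member of each complex, those with the largest and smallest differences, those past 1.2-fold, tissue isoforms, and up to 4 genes of each related list. NDUFV2, UQCRC1, UQCRC2 and ATP5MF were outside this rule and were chosen after their values were seen. The members and lists were chosen with earlier results of these data known. Differences were described by counts beside all genes and beside the 2757 genes with a mean signal of at least 1000; limma 3.58.1 in R 4.3.3 gave the additive fit, tested on simulated data. Alternatives were deposited values, quantile normalization, a floor at the 75th percentile, no floor with a pseudocount of 1, the mean of probe sets, gene-specific probe sets, members without the inhibitor and the assembly-linked factor, and, chosen after seeing the data, factors from bright genes other than members and current symbols only.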

Additional observations from a re-analysis of the deposited data

Results flagged for a closer look

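NDUFB7 differed with ultrasound in opposite directions without and with Sonazoid. Its log2 difference was -0.50 in ultrasound against control and 0.32 in the combination against Sonazoid, a gap of 0.82. The difference was not tested, since each group had 1 array.

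COX4I2, a dim isoform of complex IV, went the other way, with 0.49 without Sonazoid and -0.33 with it, a gap of -0.82. This difference was not tested either, and its signals were between 39.97 and 82.4 on the 4 arrays.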

How the results depend on the processing

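No paired analysis was possible because each group has 1 array. The members' median stayed above that of bright genes in ultrasound against control (0.053 to 0.089 on the log2 scale), in the combination against Sonazoid (0.046 to 0.074) and in the combination against control (0.061 to 0.075) under all alternatives, and turned from -0.02 to 0.0078 in Sonazoid against control with quantile normalization only. The causes of the changes below were not tested, except that settings with other probe sets or floors measure other or fewer genes. As deposited, the median member was 0.24 in the combination against control, 0.051 in ultrasound against control, 0.062 in Sonazoid against control, 0.18 in the combination against ultrasound and 0.17 in the combination against Sonazoid; in the same order, members at least 1.2-fold higher numbered 34, 6, 2, 18 and 17, where 35.1%, 17.6%, 21.1%, 39.0% and 24.0% of all genes did under the same setting. With deposited values, 1 member was 2-fold higher in the combination against control and 0 were 2-fold lower in the combination against ultrasound. No share of all genes past 2-fold is given for deposited values. At 1.2-fold, 1 was lower in the combination against ultrasound and 0 in the combination against Sonazoid, where 9.58% and 12.1% of all genes were. Above 0 were 60 in Sonazoid against control and 71 in the combination against ultrasound, where the medians of all genes were 0.089 and 0.19. With quantile normalization the medians were 0.053 in ultrasound against control, 0.015 in Sonazoid against control, -0.0053 in the combination against ultrasound and 0.038 in the combination against Sonazoid, 42 members were above 0 in Sonazoid against control, and 1 was 1.2-fold lower in the combination against Sonazoid. With the stricter floor, members 1.2-fold higher and lower numbered 3 and 1 in ultrasound against control and 0 and 0 in Sonazoid against control, 0 were 1.2-fold lower in the combination against control, and 0 were 2-fold and 3 were 1.2-fold lower in the combination against ultrasound. With no floor, members 2-fold higher and lower numbered 1 and 1 in the combination against control, 1 and 2 in Sonazoid against control and 1 and 2 in the combination against ultrasound, and 1 and 2 were 2-fold higher in ultrasound against control and in the combination against Sonazoid. With the mean of probe sets, 4 were 1.2-fold lower in the combination against control and 4 in Sonazoid against control, 10 higher and 5 lower in ultrasound against control, 5 higher and 9 lower in the combination against ultrasound, and 6 higher in the combination against Sonazoid. With gene-specific probe sets, fewer members were measured. Of 59 in the combination against control, 10 were 1.2-fold higher and 6 lower. In ultrasound against control 6 of 59 were lower, and in Sonazoid against control 7 of 58 were higher and 6 lower. In the combination against ultrasound 8 of 60 were 1.2-fold higher and 8 lower, and 2 were 2-fold lower. In the combination against Sonazoid 2 of 58 were 2-fold higher and 1 lower. No share of all genes is given for the settings with other floors or probe sets, so their counts have no background beside them. With factors from bright genes other than members, 1 was 1.2-fold lower in the combination against Sonazoid, where 15.7% of all genes were. Under quantile normalization, 17.0% of all genes were lower by that much in the same comparison. By current symbols only, 1 was 1.2-fold lower in each comparison with control. UQCR10 in ultrasound against control reversed from 0.27 to -0.003103 with the mean of its probe sets and to -0.27 with the gene-specific one. Signal over background limits the dim isoforms.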
